A study of Bos taurus with 16 samples.

Results

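Interferon-stimulated genes were examined in RNA-Seq counts of bovine preimplantation embryos. The members were 9 gene symbols, IFI6, DTX3L, ISG15, MX1, MX2, IFI44, STAT2, IRF9 and IFITM3, and a row was taken where the gene name in the count files equalled a symbol. Rows were found for 8 of the 9, each as a single locus of the 22358 in the files, and no row carried the name IFITM3. Of these, 2 were chosen by their values in these same pools, namely IFI6 because of 1 control pool and DTX3L because of its higher values after methionine supplementation, so their values are given as a description and were not tested. The question was whether any of the other 6 members found had either pattern.

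The embryos came from 8 Holstein cows, 4 per treatment, with 2 pools of expanded blastocysts per cow. Control cows (pools C1.1 to C4.2) received a basal ration without added methionine, and methionine-rich cows (pools M5.1 to M8.2) received the same basal ration formulated with rumen-protected methionine, from calving until embryo flushing. According to the study's methods all cows were superovulated with FSH and inseminated artificially, and the embryos were recovered from the cows, whereas the tissue label in GEO reads IVF embryos. Each pool held a few blastocysts of a single cow or, in some pools, a single blastocyst, its RNA went through repeated linear amplification, and every cow belonged to 1 treatment, so a difference between treatments is also a difference between cows. By the study's supplement, several methionine-rich pools held more blastocysts than any control pool. Several also had a lower RNA quality number than any control pool measured. Neither was accounted for in the tests. Control pool C3.2 was not entered in the comparisons, as the study also excluded it. There remained 7 control and 8 methionine-rich pools.

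Type I interferons bind a cell surface receptor, which activates the kinases JAK1 and TYK2. STAT2 is then phosphorylated and joins IRF9 in a complex, ISGF3, that enters the nucleus and switches on the interferon-stimulated genes. Many of these encode antiviral effectors, among them the ubiquitin-like protein ISG15 and the GTPases MX1 and MX2. In ruminants the trophectoderm of the conceptus secretes interferon tau, the signal of maternal recognition of pregnancy, and maternal blood leukocytes and endometrium respond to it with higher expression of ISG15, MX1 and MX2.

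Total counts were 5624126 to 7778414 for control pools, 5941973 to 7826542 for methionine-rich pools and 1745048 for C3.2. Levels are in CPM, the counts of a locus relative to the total of its pool. A floor of 3 counts corresponded to between 0.383 and 0.533 CPM in the 15 pools. CPM is not adjusted for transcript length, so levels are compared between pools and not between genes. Of the 15 loci of blastocyst markers, 13 were over the floor in C2.1, 12 to 14 in other control pools and 11 to 14 with methionine supplementation. The trophectoderm gene CDX2 had 0 to 203 counts over the 15 pools, and the endoderm gene SOX17 had 0 counts in all pools.

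IFI6, a small mitochondrial and endoplasmic reticulum protein with antiviral and antiapoptotic activity, was nearly confined to a single control pool. It had 1446 counts in C2.1, 2 in C1.1, 2 in C4.2, 1 in C2.2, 1 in C3.1, and 0 in C1.2, in C4.1 and in all 8 methionine-rich pools. The second pool of the same cow, C2.2, therefore held a single count. C2.1 held 99.7% of the summed CPM of IFI6 over the 15 pools, at 257 CPM. The control mean was 36.8 ± 97.1 CPM (SD, n = 7) and fell to 0.135 ± 0.117 (n = 6) without C2.1. Against the floor of 3 counts per methionine-rich pool the control mean was at least 87.1-fold higher, a value that rests on C2.1. In whole embryos, fewer cells that express a gene and less RNA per cell cannot be told apart.

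**Figure D1:**
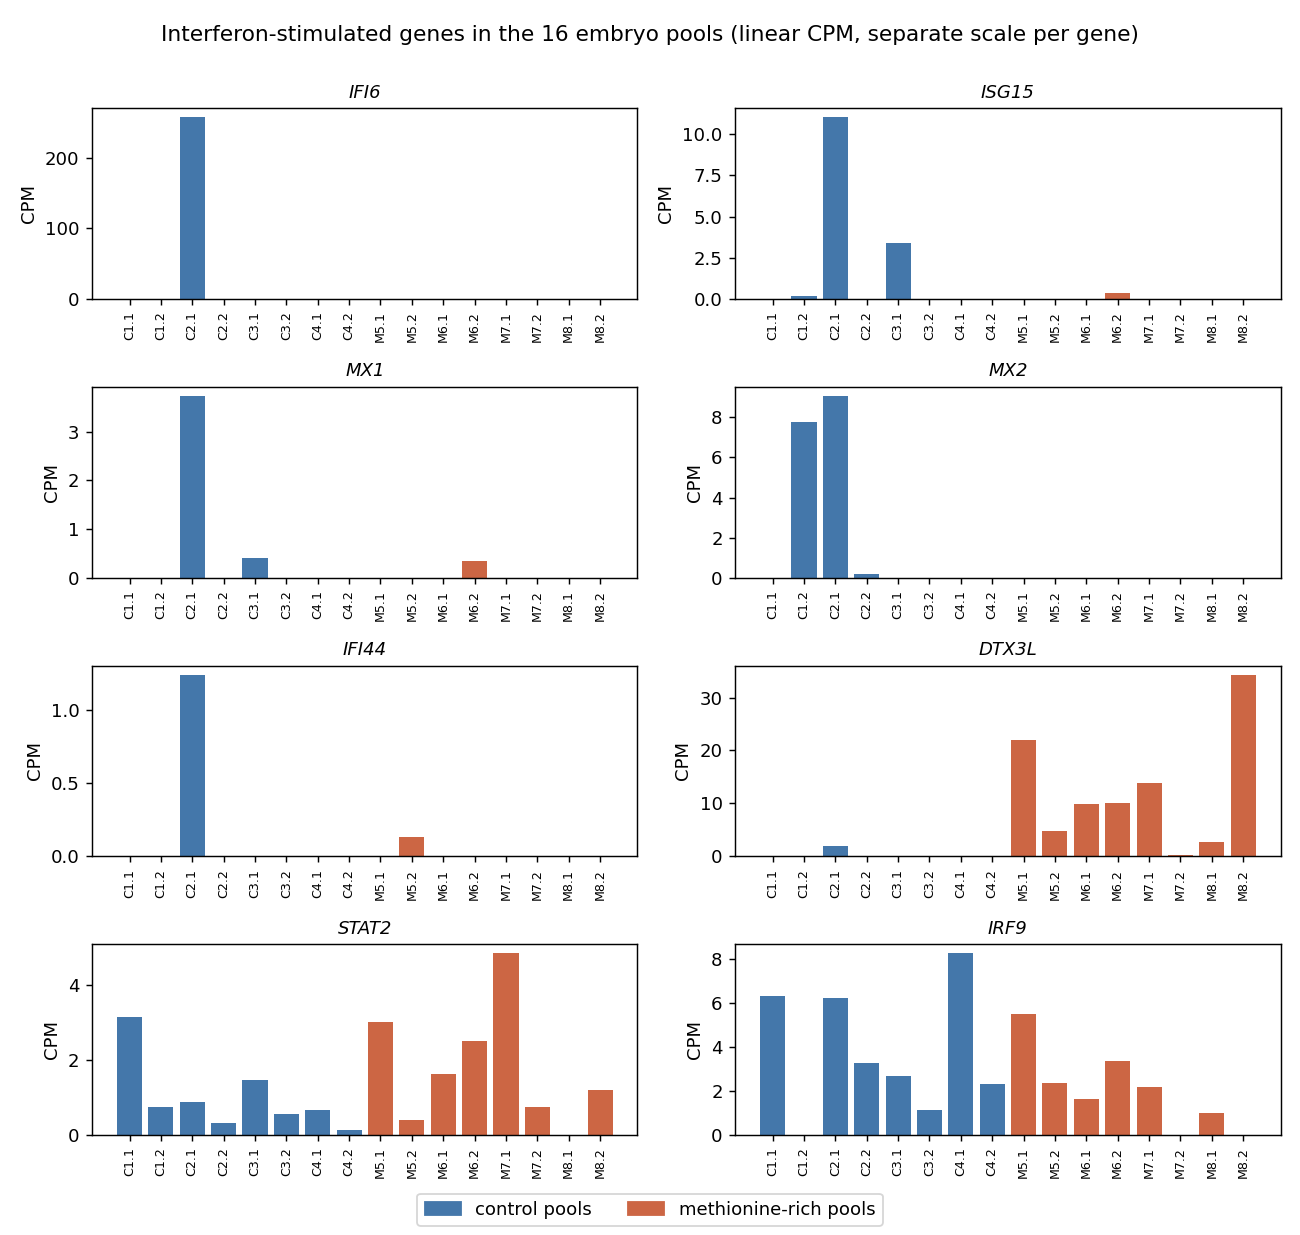
Bars show the level (CPM, linear axis from 0, own scale for each gene) of the 8 members found in each of the 16 embryo pools, control in blue and methionine-rich in orange. IFI6, ISG15, MX1, MX2 and IFI44 are highest in control pool C2.1, DTX3L is seen mainly in methionine-rich pools, and STAT2 and IRF9 are spread over both treatments.

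The 4 other effectors among the members, ISG15, MX1, MX2 and IFI44, were also highest in C2.1. ISG15, a ubiquitin-like modifier that is conjugated to proteins during an antiviral response, had 62 counts in C2.1, 25 in C3.1, 1 in C1.2, 2 in M6.2 and 0 in the other 11 pools. Its level was 11.02 CPM in C2.1 and 3.37 in C3.1, the only pools over the floor. MX1, a GTPase that traps viral nucleocapsids, had 21 counts in C2.1, 3 in C3.1, 2 in M6.2 and 0 elsewhere. C2.1 was thus the only pool of the 15 over the floor for MX1.

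MX2, the neighbouring paralog of MX1 in the RefSeq annotation, departed from this in that 2 pools carried it. It had 51 counts in C2.1 and 52 in C1.2, or 9.07 and 7.80 CPM, 1 count in C2.2, and 0 in the other 12 pools, all 8 methionine-rich pools included. IFI44, a cytoplasmic protein with antiviral activity, had 7 counts in C2.1, 1 in M5.2 and 0 elsewhere. Reads from MX1 and MX2, which resemble each other, may have been split between them in counting.

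C2.1 held 90.4% of the summed CPM of IFI44, 83.4% of MX1, 74.1% of ISG15 and 53.3% of MX2. In contrast, it held 13.8% of IRF9, 4.08% of STAT2 and 1.96% of DTX3L. Thus 4 of the 6 members not chosen by their values had at least 50% of their summed CPM in C2.1, which was the case for 4.34% of the 17409 loci with a count. Loci with few counts are often concentrated in some pool, and 62.8% of the 4481 loci with a summed CPM of 1 to 15 had at least 50% in a single pool. C2.1 was that pool for 350 of the 4481, or 7.81%. The 5 members highest in C2.1 were selected on that pool, so a higher sum there was fixed in advance. Their summed CPM was 282 in C2.1, of which IFI6 alone gave 257. The sum reached 7.95 in another control pool, C1.2, and was 0.673 or less with methionine supplementation. In C2.2, from the same cow, the sum was 0.310. All 8 members found were over the floor in C2.1, against 1 to 3 members in each of the other 14 pools. The 8 include IFI6, which was chosen because of C2.1, and no such count over all loci is given here.

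**Figure D2:**
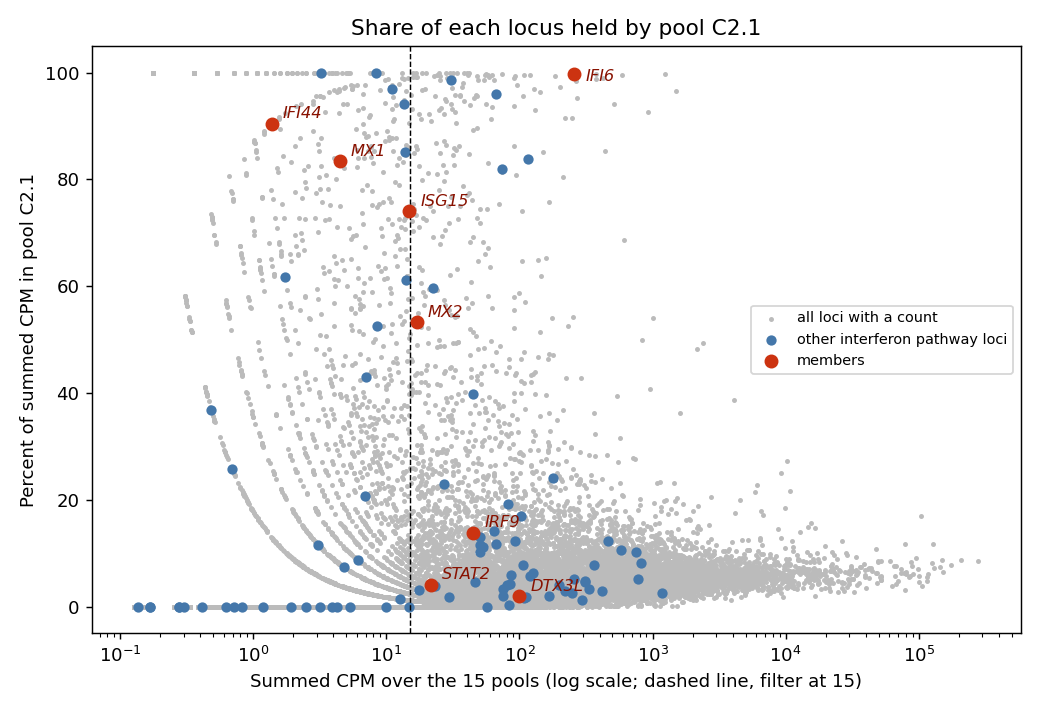
Each point is a locus with a count, placed by its summed CPM over the 15 pools (x, log scale) and the percentage of that sum held by control pool C2.1 (y); members are red, other interferon pathway loci blue, all other loci grey, and the dashed line marks the filter at 15. IFI6, IFI44, MX1, ISG15 and MX2 lie above 50%, while IRF9, STAT2 and DTX3L lie at 13.8%, 4.08% and 1.96%.

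To compare the treatments, loci with a summed CPM of at least 15 were tested with the exact test of edgeR. A call required a false discovery rate (FDR) under 0.10 together with a difference of 2-fold or more. Of the 10519 loci tested, 110 (1.05%) were called, of which 81 (0.77%) had the higher level in control and 29 (0.276%) in methionine-rich pools. With the quasi-likelihood test of edgeR 0 loci were called, 909 had an unadjusted p under 0.05, and the smallest FDR was 0.302. The filter was passed by 5 of the 8 members found, IFI6, DTX3L, MX2, STAT2 and IRF9. MX2 lay just inside it with a summed CPM of 17.0 and ISG15 just outside with 14.9, and MX1 (4.47) and IFI44 (1.38) also fell below. A member that passes only through the pools where it is high had to differ between pools, which applies to MX2.

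None of the 3 tested members that were not chosen by their values, MX2, STAT2 and IRF9, was called. MX2 averaged 2.43 ± 4.12 CPM in control pools (n = 7) and 0 in methionine-rich pools (n = 8), and the control mean was at least 5.75-fold above the floor of 3 counts per methionine-rich pool. Without C2.1 the control mean was 1.33 ± 3.17 CPM (n = 6), carried by C1.2, and the bound 3.13-fold. The exact test of edgeR gave MX2 an FDR of 0.158 and the quasi-likelihood test an FDR of 0.323. Without cow 4 the exact test gave an FDR of 0.043 and without cow 3 an FDR of 0.0957, both past the threshold. Without C2.1 MX2 was below the filter and was not tested.

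ISG15, MX1 and IFI44 were tested only in a fit over all 17409 loci with a count, in which the exact test called 55 (0.316%), and none of these 3 was called. ISG15 averaged 2.08 ± 4.14 CPM in control pools and 0.0421 ± 0.119 in methionine-rich pools. The ratio of control to methionine-rich ISG15 counts was 52.8 with a 95% counting interval of 14.2 to 443, and the exact test gave an FDR of 0.587. MX1 averaged 0.591 ± 1.39 and 0.0421 ± 0.119 CPM, a ratio of 14.4 (interval 3.57 to 126) with an FDR of 0.96. IFI44 averaged 0.178 ± 0.470 and 0.0165 ± 0.0467 CPM, a ratio of 8.40 (interval 1.08 to 379) with an FDR of 1.0. The quasi-likelihood test over the same loci gave FDR values of 0.222 for ISG15, 0.292 for MX1 and 0.354 for IFI44. The intervals cover counting error only and not the spread between pools, and the counts behind them come mainly from C2.1. Without C2.1 the control mean was 0.586 ± 1.36 CPM for ISG15, 0.0674 ± 0.165 for MX1 and 0 for IFI44 (n = 6).

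**Figure D3:**
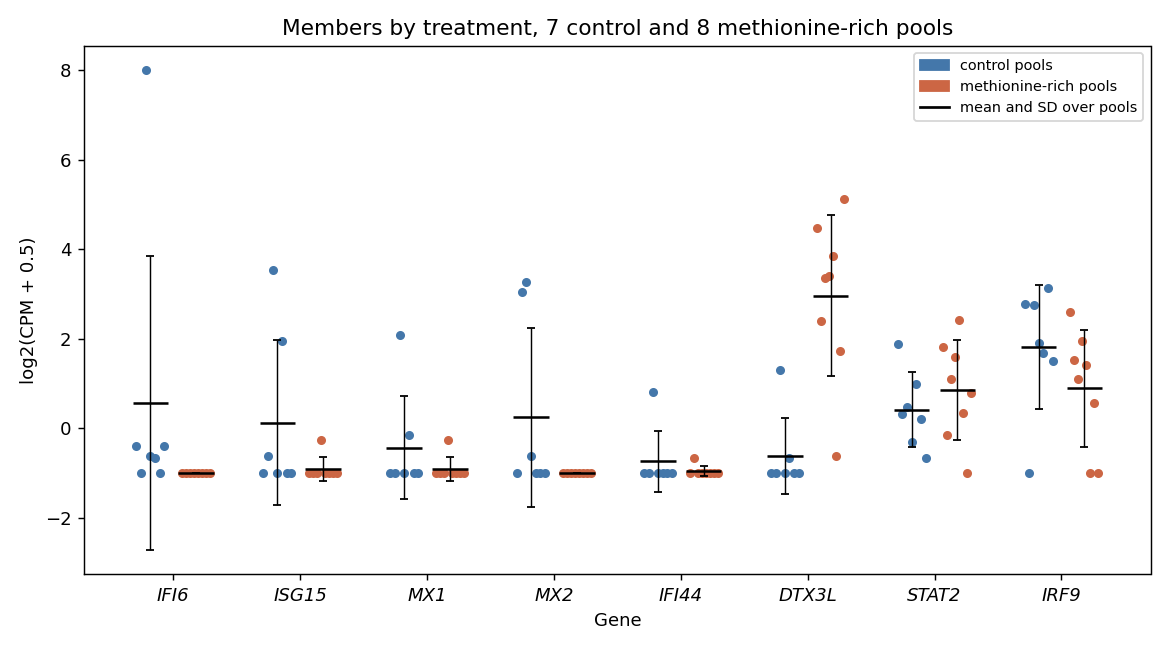
Points are single pools, 7 control in blue and 8 methionine-rich in orange, on a log2(CPM + 0.5) scale; black lines are the mean and error bars the SD over pools. The control points of IFI6, ISG15, MX1 and IFI44 lie at or near the level of 0 counts except for C2.1 and, for ISG15, C3.1; the STAT2 and IRF9 points of both treatments overlap.

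STAT2 and IRF9, components of the ISGF3 complex, were detected in pools of both treatments and did not have the pattern of IFI6. STAT2 ranged from 0.129 in C4.2 to 3.17 CPM in C1.1, with a median of 0.750, in control pools. It ranged from 0 in M8.1 to 4.86 CPM in M7.1, with a median of 1.43, in methionine-rich pools. The treatments overlapped, and the log2 fold change of methionine-rich over control was 0.73. Its FDR was 1.0 in the exact test, and the quasi-likelihood test gave 0.944. C2.1 had 5 STAT2 counts and C2.2 had 2.

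IRF9 ranged from 0 in C1.2 to 8.24 CPM in C4.1, with a median of 3.25, in control pools. In methionine-rich pools it ranged from 0 in M7.2 and M8.2 to 5.51 CPM in M5.1, with a median of 1.90. The means were 4.15 ± 2.87 (n = 7) and 2.00 ± 1.83 CPM (n = 8), and the log2 fold change was -1.17. The FDR of IRF9 was 0.94 in the exact test, and the quasi-likelihood test gave 0.88. IRF9 in C2.1, at 6.22 CPM, was below C4.1 and C1.1. Its share in its highest pool, 18.3%, was close to the median of 19.3% over all loci tested.

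DTX3L, an E3 ubiquitin ligase that pairs with the ADP-ribosyltransferase PARP9 in interferon signalling and DNA damage repair, had the opposite distribution. Control pools held 11 counts in C2.1, 1 in C3.1 and 0 in the other 5. Methionine-rich pools held 254 counts in M8.2, 159 in M5.1, 109 in M7.1, 72 in M6.1, 60 in M6.2, 36 in M5.2, 20 in M8.1 and 1 in M7.2. Pools overlapped, since M7.2 was at 0.152 CPM and C2.1 at 1.96 CPM, whereas cow means did not, ranging from 0 to 0.978 CPM in control cows and from 7.04 to 18.5 CPM in methionine-rich cows. Cow means were separated in this direction for 1.16% of the loci tested, and DTX3L was chosen by this contrast. The means were 0.299 ± 0.732 CPM (n = 7) and 12.2 ± 11.2 CPM (n = 8). The control mean rests on C2.1, the highest control pool, and fell to 0.0225 ± 0.055 CPM (n = 6) without it, so that no fold difference is given.

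None of the 6 other members found had cow means separated as in DTX3L. STAT2 was the only one of them with a higher mean in methionine-rich pools, 1.80 ± 1.61 against 1.05 ± 1.03 CPM, and its cow means overlapped, from 0.394 to 1.96 in control and from 0.608 to 2.81 in methionine-rich cows. As pools of a cow are not independent, the means of the 4 and 4 cows on the log2(CPM + 0.5) scale were also compared by two-sided exact permutation tests over 70 assignments, where the smallest possible p is 0.0286. Over the 6 members the lowest p was 0.2, for IRF9, with a difference of -0.91, and p was 0.257 for ISG15, 0.429 for STAT2, MX1 and MX2, and 1.0 for IFI44.

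PARP9, the partner of DTX3L, did not have its distribution. PARP9 averaged 5.08 ± 6.93 CPM in control and 5.83 ± 8.88 CPM in methionine-rich pools, a log2 fold change of 0.06 with an FDR of 1.0. In the RefSeq annotation PARP9 and DTX3L are neighbours that overlap, and PARP14, another ADP-ribosyltransferase, follows DTX3L. Whether reads were counted by strand is not given in the sources used here, so reads of the overlap may be missing from both PARP9 and DTX3L. PARP14, singled out here as a neighbour, was at 0.921 ± 1.26 and 6.30 ± 16.3 CPM, with 82.0% of its summed CPM in M8.1, and its log2 fold change of 2.81 had an FDR of 0.688.

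The other genes of the interferon pathway were taken from a list of 118 genes, of which 100 were found as 107 loci and 50 loci were tested. A single locus, IFNGR2, was called, with the higher level in control, and 0 in the other direction. The 1 call is 2.0% of the 50, beside 1.05% over all loci tested. By the quasi-likelihood test 0 were called. An unadjusted p under 0.05 was reached by 5 of the 50 in the exact test and 4 (8.0%) in the quasi-likelihood test, beside 8.54% and 8.64% over all loci tested, so these shares are near the background. The median log2 fold change of the 50 loci was -0.24, beside -0.05 over all loci tested. IFNGR2, the second chain of the interferon gamma receptor, was counted 358 times in C2.1, or 96.0% of its summed CPM, and no other pool held over 13 counts. Its means were 9.42 ± 23.9 and 0.0509 ± 0.101 CPM, with a log2 fold change of -7.20. Its FDR was 0.0962 in the exact test, and the quasi-likelihood test gave 0.302. Without C2.1 IFNGR2 was below the filter, so it passed only through that pool and had to differ between pools. Its call is therefore not read as a treatment difference.

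The pathway loci concentrated in C2.1, IFNGR2 included, were chosen after their values were seen, as those with at least 50% of their summed CPM there. They were 13 of the 85 pathway loci with a count, or 15.3%. The share was 4.34% of all loci with a count and 7.81% of those with a summed CPM of 1 to 15. Of these 13, 9 were effectors. IFIT2 and IFIT5, tetratricopeptide proteins that act on foreign RNA, had 18 and 170 counts in C2.1, and no other pool held over 2 of either. BST2 (tetherin, which holds budding virions at the cell surface) was present as 2 loci, of which XLOC_018704 had 60 counts in C2.1 and 2 or fewer elsewhere. The other, XLOC_018703, held 14.2% of its summed CPM in C2.1. XAF1, a proapoptotic protein, had 72 counts in C2.1 and 4 or fewer elsewhere.

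IFI30, a lysosomal thiol reductase of antigen processing, had 550 counts in C2.1, 47 in M6.1 and 13 in C2.2. TRIM25, a ubiquitin ligase that activates the RNA sensor RIG-I, had 338 counts in C2.1 and 72 in M6.2. The locus named for OAS1 and OAS2, which make the 2-5A signal for RNA decay, had 66 counts in C2.1 and 15 in M6.1. The remaining effectors, IFI16 (a DNA sensor) and SP100 (a nuclear body protein), had 48 and 6 counts in C2.1, or 61.1% and 61.8% of their summed CPM.

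Several classical targets were not concentrated there or were not detected. RSAD2 (viperin) had 5 counts in all control pools together and 0 in methionine-rich pools, and IFIT1 and IFIT3 had 0 in the 15 pools. Among the enzymes that conjugate or remove ISG15, UBE2L6 and USP18 had 0 counts in the 15 pools, which allows up to 3 counts in each. UBA7 averaged 0.0696 ± 0.135 and 0.324 ± 0.637 CPM and was not tested. HERC6, from the effectors of the pathway list, averaged 1.37 ± 2.28 and 2.19 ± 5.99 CPM with an FDR of 1.0. HERC5, from the same list, averaged 2.87 ± 3.23 and 7.86 ± 10.3 CPM, a log2 fold change of 1.46 with an FDR of 0.9 in the exact test. No row was found for IRF7.

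**Figure D4:**
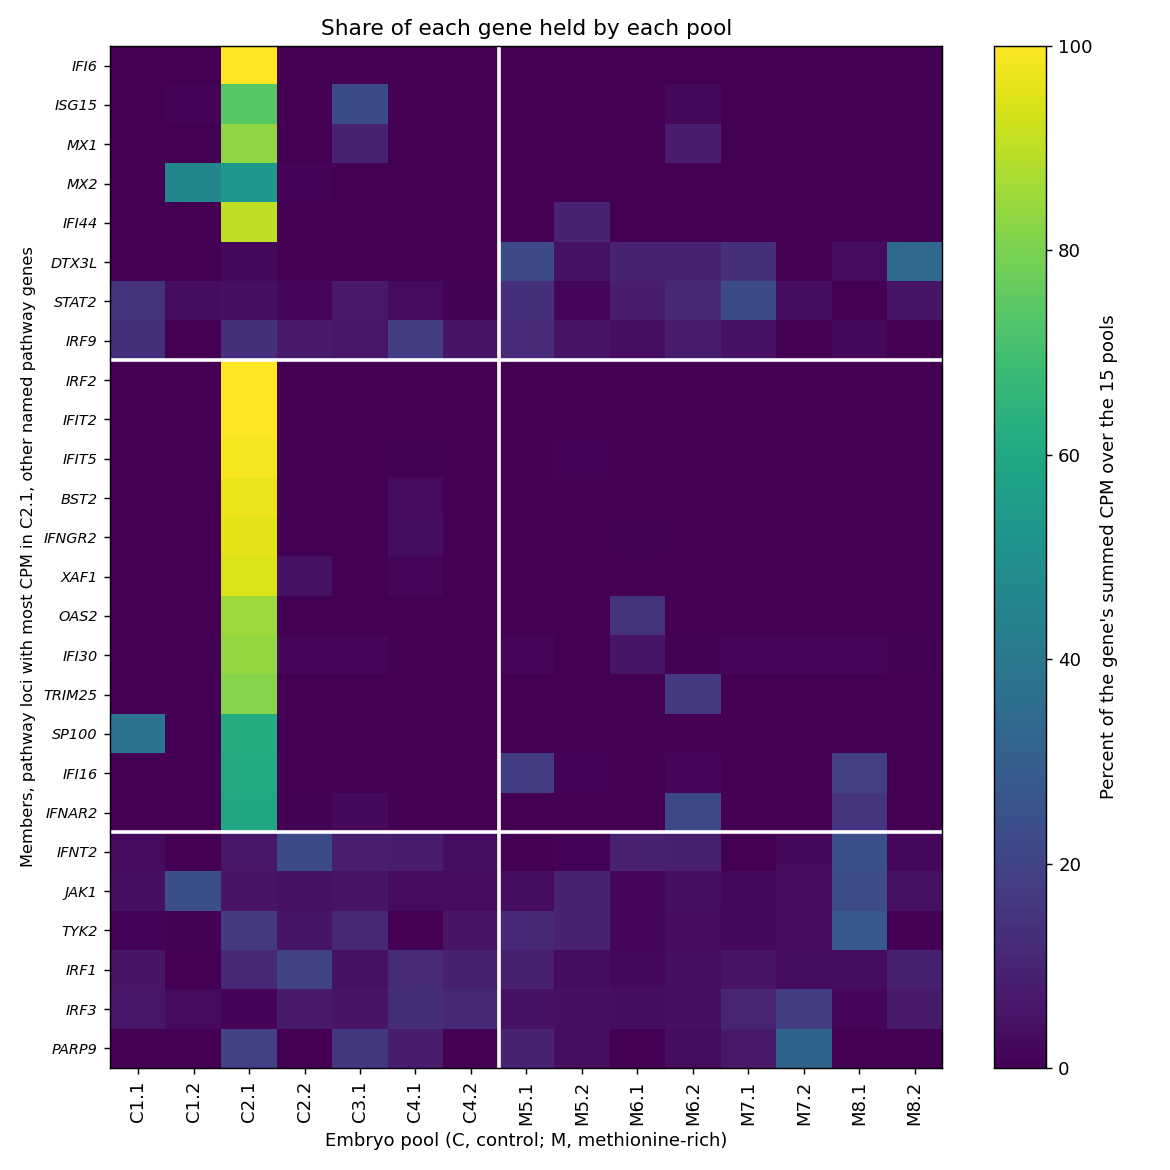
Rows are the 8 members (top), 12 pathway loci with at least 50% of their summed CPM in C2.1 (middle) and 6 other named pathway genes (bottom), columns are the 15 pools, and the colour is the percentage of the summed CPM held by the pool. The C2.1 column is bright for 5 members and the middle rows, which were selected on it; DTX3L, STAT2, IRF9 and the bottom rows are spread over pools.

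Upstream of the members, the receptor chains were also uneven over the pools. IFNAR2, a chain of the type I receptor, had 75 counts in C2.1 (59.6% of its summed CPM), 29 in M6.2 and 1 in C2.2. IFNAR1, the other chain, averaged 0.649 ± 1.23 and 3.11 ± 4.85 CPM, a log2 fold change of 2.25 with an FDR of 0.864. Of the 5 receptor loci with a count 3 were highest in C2.1, as were 3 of 12 kinases and transcription factors and 10 of 47 effectors. None of the 4 ligands, 5 inhibitors or 12 nucleic acid sensors and adaptors was highest there. Over all loci with a count the share highest in C2.1 was 7.99%, and it was 10.8% for those with a summed CPM of 1 to 15. Most of these groups are too small to be set apart from such shares.

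IRF2, which represses many interferon targets, had 47 counts in C2.1 and 0 in the other 14 pools. The kinases JAK1 (17.7 ± 19.2 and 16.4 ± 18.8 CPM) and TYK2 (6.01 ± 6.39 and 7.51 ± 9.37 CPM) were not concentrated in C2.1, with 5.22% and 16.9% of their summed CPM there. IRF3 averaged 19.7 ± 12.8 and 19.5 ± 15.6 CPM, and IRF1 4.65 ± 3.38 and 2.57 ± 1.36 CPM. JAK1, TYK2, IRF3 and IRF1 were tested and not called.

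Among the ligands only IFNT2, an interferon tau locus, was tested. IFNT2 had 126 counts in C2.2, 29 in C2.1, 152 in M8.1 and 0 in C1.2, and averaged 6.39 ± 6.32 and 5.25 ± 7.14 CPM, with a log2 fold change of -0.16 and an FDR of 1.0. C2.1, at 5.95% of its summed CPM, was thus not its highest pool. Interferon tau genes are near-identical copies, and reads may have been divided between them. Of the 12 ligand loci found, 8 had 0 counts in the 15 pools.

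The pathway genes with the highest CPM were present in every pool and none was called. SHISA5, LAP3, PARP12, PTPN2, ADAR, GBP4, STAT3, LGALS3BP, SOCS1 and TOR1B held between 2.49% and 12.2% of their summed CPM in C2.1. SHISA5, an endoplasmic reticulum protein, averaged 76.9 ± 28.0 and 79.1 ± 33.8 CPM. The inhibitors PTPN2, a phosphatase acting on JAK1, and SOCS1 averaged 53.8 ± 36.1 and 46.9 ± 21.7 CPM, and 23.5 ± 26.0 and 21.1 ± 11.8 CPM. ADAR, which edits double-stranded RNA, averaged 42.3 ± 37.4 and 35.5 ± 18.9 CPM.

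More leukocyte markers were detected in C2.1 than in the other pools, although the summed level of the whole list was not the highest. Of 26 leukocyte marker loci 12 were over the floor in C2.1, against 6 to 9 in other control and 5 to 8 in methionine-rich pools. Their summed CPM was 214 in C2.1, below the highest values of other pools (230 in control, 227 with methionine supplementation). The higher sums were carried by a GZMB locus, XLOC_010759, with 1287 counts in C3.1 and 141 in C2.1, and by CD37, with 661 in M7.1, 658 in C2.2 and 20 in C2.1. Over the other 24 loci the sum was 185 CPM in C2.1, most of it from CD53 and ITGB2. The next highest were 73.5 in control pool C2.2 and 71.3 in M7.2. Leaving out that GZMB locus and CD37 was decided after the values were seen, and it favours C2.1. In the whole list of 26, 21 loci had a count and 6 of these (28.6%) were highest in C2.1, beside 7.99% of all loci with a count. Among the 6, FERMT3 with 3 counts and S100A8 with 2 were not over the floor there. The tetraspanin CD53 had 431 counts in C2.1, 98 in C3.1 and at most 29 elsewhere among the 15 pools, and the integrin chain ITGB2 had 226 in C2.1, 16 in C3.1 and at most 2 elsewhere. PTPRC (CD45), which defines leukocytes, had 18 counts in C2.1 and 48 in M8.1. Other markers were also higher outside C2.1. CD14 had 5 counts in C2.1 and 84 in C2.2, CSF1R 13 in C2.1 and 84 in M8.2, and HCLS1 0 in C2.1 and 46 in M5.1. RAC2 had 46 in C2.1 and 139 in C2.2, and IL2RG 39 in C2.1 and 69 in M7.2. The T cell genes CD2, CD3E and CD3G had 0 counts in all pools. C3.1 was second to C2.1 for ISG15, MX1, CD53 and ITGB2, but had 0 counts of MX2, IFI44 and PTPRC. The part of leukocyte RNA in the values of C2.1 was not tested.

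The sums over markers of cumulus, granulosa and reproductive tract cells were not highest in C2.1. Of 13 cumulus and granulosa cell loci 4 were over the floor in C2.1, against 2 to 6 in other control and 3 to 6 in methionine-rich pools. They summed to 59.0 CPM in C2.1, where the highest sums were 75.3 in control and 63.1 with methionine supplementation. No locus was left out of this list. Its highest sums were carried by CYP19A1, with 443 counts in C4.2 and 355 in M6.1, against 126 in C2.1. INHBA was highest in C2.1, with 148 counts there and 135 in C3.1. Of 7 loci of oviduct and endometrium epithelium 1 was over the floor in C2.1, against 0 to 3 in the other control and in the methionine-rich pools. The blastocyst markers summed to 3740 CPM in C2.1, within the ranges of 3650 to 8340 in control and 2690 to 6510 in methionine-rich pools.

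The loci whose levels ran most like those of the widely detected members were sought by Spearman correlation over the 15 pools, as a description. DTX3L ran most like C20H5orf35 (0.832), CCDC104 (0.804) and STX3 (0.796). STAT2 ran like HSBP1 (0.839) and RIPK1 (0.826), and IRF9 like DACT1 (0.9), WDR33 (0.86) and RAP2C (0.842). None of these loci is in the interferon pathway list, and the pools share cows and treatments.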

How the data were processed

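From 16 blastocyst pools the authors amplified RNA, sequenced it, mapped reads to bosTau7 with TopHat2 2.0.4, assembled transcripts with Cufflinks 2.0.2 and counted reads per gene with HTSeq. The deposited values are whole-number counts without normalization, and 182 loci listed under several names were entered once. Strand handling is not given in the sources used here. No 2 pools agreed within counting noise (smallest chi-square per degree of freedom 64.4). The members and the pathway and marker lists were chosen with earlier results of these data known.

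CPM was computed from the pool total. With edgeR 4.0.16 in R 4.3.3, loci with summed CPM of at least 15 over 15 pools were normalized by TMM, and the exact test with tagwise dispersions was applied to the 2 treatments, with Benjamini-Hochberg adjustment (call: FDR under 0.10, at least 2-fold). Fold changes are methionine-rich over control. Pools of a cow are separate pools of 1 cow, so p-values over pools overstate the number of independent units. The code was tested on simulated data. Ratios have exact 95% binomial counting intervals, and cow means were compared by exact permutation tests with SciPy 1.17.1. Alternatives were the quasi-likelihood test, DESeq2 1.42.0, voom of limma 3.58.1 with a random cow effect, sums per cow, other normalizations and filters, all 16 pools, pool C2.1 or each cow left out, and pool number as a block. The pool numbers do not pair pools (mean correlation of deviations -0.0088 for same and 0.00871 for different numbers). A fit over all loci with a count by the quasi-likelihood test was added after seeing the data.

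The text names all members, pathway genes that were called, the 10 with the highest CPM, signalling and conjugation partners of the members, and the 3 loci most like DTX3L, STAT2 and IRF9; other genes were chosen after their values were seen. Of the genes this rule names, 2 are not reported here. IFITM3 is listed in RefSeq as a synonym of 2 loci, LOC777594 and LOC282255, neither of which had a row. RefSeq names and neighbours come from another assembly, ARS-UCD2.0, so no coordinates are given, and promoter motifs were not analysed here.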

Additional observations from a re-analysis of the deposited data

Results flagged for a closer look

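Among the 6 members not chosen by their values, 11 combinations of a member and a treatment had any count, and 1 pool stood apart from the others of its treatment in 6. The measure is the gap to the nearest pool over the range of the group, with critical values of 0.568 for 7 and 0.526 for 8 pools. In control, C2.1 stood apart for MX1 (0.892) and ISG15 (0.695). In the other 4 a single pool held all the counts, which fixes the measure at 1.0, namely C2.1 for IFI44 (7 counts) in control and, under the floor, M6.2 for ISG15 and MX1 (2 counts each) and M5.2 for IFI44 (1 count). Chance gives about 1 in 20 for spread values, a rate that does not apply where most pools are at 0.

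In C3.2, the control pool left out of the comparisons, no member was over the floor, but 6 pathway loci exceeded their level in every other pool. TRIM27, a tripartite motif protein, had 1940 CPM there, against at most 11.4 elsewhere. LGALS3BP, a secreted glycoprotein, had 107 CPM (at most 56.6 elsewhere). SAMHD1, a dNTP hydrolase, had 77.9 CPM (at most 21.9), and DDX58, the RNA sensor RIG-I, had 41.3 (at most 25.1). CMPK2, a mitochondrial nucleotide kinase, had 35.0 (at most 14.1) and a LGALS9 (galectin 9) locus had 18.9 (at most 3.60). TRIM27 and this LGALS9 locus were also highest there by counts. SAMHD1, DDX58, CMPK2 and LGALS3BP had fewer counts in C3.2 than in another pool, for example 187 against 420 for LGALS3BP.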

How the results depend on the processing

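The directions of STAT2, IRF9 and MX2 held in every alternative that gave them a value (20, 21 and 16), and only MX2 was called in any. The number of members called among MX2, STAT2 and IRF9 was 0 and, leaving out each cow in turn, 0 to 1. The single pathway locus called, IFNGR2, gave way to 0 with the quasi-likelihood test, DESeq2, voom, sums per cow, library totals only, both other filters, without C2.1, and with pool number as a replicate block, and the count was 2 with all 16 pools. Leaving out each cow gave 0 to 1, with 0 without cow 2, 5, 6, 7 or 8. Over all loci the 110 calls became 0 with the quasi-likelihood test, with voom and with the replicate block, 67 with DESeq2, 55 over all loci with a count, 6 with at least 1 CPM in 7 pools, 356 with all 16 pools, 64 without C2.1, and 62 to 153 without each cow. The cause was not tested, beyond the loss of IFNGR2 and MX2 from the filter without C2.1. Mean CPM and shares per pool moved by less than the spread between pools. STAT2 had no value in the sums per cow, and MX2 had none there, with at least 1 CPM in 7 pools, or without cow 1, cow 2 or C2.1. The floor of 3 counts limits ISG15, MX1 and IFI44, most of whose pools lie under it.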
